A study of Mus musculus with 16 samples.

Results

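Mylpf, Tnnt1 and Myl4 are genes of the sarcomere, the contractile unit of striated muscle, and were followed here through 16 two-colour arrays of mouse cells. They are the 3 genes, among 7114 named genes in all, whose probes carry one of these symbols alone in the platform annotation, each with 1 probe (209960 for Mylpf, 211863 for Tnnt1 and 203253 for Myl4; Entrez genes 17907, 21955 and 17896). The 3 were chosen by their M833 against WT values, which were higher in M833 for all of them, so that this direction is a property of the choice and is described below without a test. The arrays held total RNA of 2 cell types named WT and M833, with 8 arrays each, from a series on Met mutations in MEFs. MEF commonly stands for mouse embryonic fibroblast. What M833 stands for, the age, sex and strain of the cells, and whether the arrays of a cell type came from separate cultures or clones were not found in the labels, so that errors measure only the spread between arrays, which may be technical. Every array paired its cell RNA with one common reference RNA of unstated make-up, 4 arrays of a cell type with the cells in Cy5 and 4 with the cells in Cy3. A value is a log2 ratio, read as cells over reference, a direction that the titles make likely and no label states. In bulk RNA of this kind fewer cells of a type and less RNA per cell cannot be told apart.

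In a sarcomere, thick filaments of myosin pull on thin filaments of actin when calcium binds the troponin complex on the thin filament. Each myosin head carries a pair of light chains. The regulatory light chain of fast skeletal muscle, which can be phosphorylated, is encoded by Mylpf, and Myl4 encodes an essential light chain made in embryonic skeletal muscle and in the atria of the heart. Tnnt1 encodes the slow skeletal form of troponin T, the subunit that ties the troponin complex to tropomyosin. Cultured fibroblasts build contractile bundles from other members of the same families, among them the light chains Myl6, Myl9, Myl12a and Myl12b. Of 19 skeletal muscle markers listed only these 3 genes had a probe under their symbol, so that this list could not check the muscle label. Other muscle genes, among them Actn2, Smyd1 and Nrap, were measured and are described below, where they differed in both directions.

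The promoters of the 3 genes are shown as a description only, since the direction the genes shared is a property of the choice. RefSeq start sites on GRCm38.p6 were found for all 3 genes, and the 250 bases before each are printed in lower case with motif matches in capitals. The Mylpf window is chr7:127211358-127211607 on the plus strand, the Tnnt1 window chr7:4515976-4516225 on the minus strand and the Myl4 window chr11:104550413-104550662 on the plus strand.
Mylpf: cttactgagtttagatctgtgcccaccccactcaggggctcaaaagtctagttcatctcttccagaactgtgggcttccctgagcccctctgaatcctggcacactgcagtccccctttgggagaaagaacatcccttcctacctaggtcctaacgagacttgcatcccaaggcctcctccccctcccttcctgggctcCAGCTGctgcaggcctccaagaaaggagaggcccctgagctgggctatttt
Tnnt1: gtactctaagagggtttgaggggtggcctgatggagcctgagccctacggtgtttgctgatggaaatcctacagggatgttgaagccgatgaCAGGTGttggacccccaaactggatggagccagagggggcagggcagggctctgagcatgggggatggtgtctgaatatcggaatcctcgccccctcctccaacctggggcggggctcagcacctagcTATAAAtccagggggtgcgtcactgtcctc
Myl4: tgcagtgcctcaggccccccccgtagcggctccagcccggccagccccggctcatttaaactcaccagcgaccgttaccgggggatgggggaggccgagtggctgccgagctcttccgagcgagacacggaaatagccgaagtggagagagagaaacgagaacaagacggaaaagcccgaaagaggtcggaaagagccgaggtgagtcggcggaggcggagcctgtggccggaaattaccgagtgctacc
Both strands were searched for the E-box CANNTG, the site type bound by myogenic factors such as MyoD, for its form CAGCTG, which lies within it, for the MCAT element CATTCC, for the CArG box, for the MEF2 box and for TATAAA. Mylpf held 1 E-box, CAGCTG, which began 51 bases before the start site, and Tnnt1 held 1, CAGGTG, which began 158 bases before it. Tnnt1 also held TATAAA, beginning 30 bases before the start site. None of these letters stood in the Myl4 window, whose GC content was 63.6%, against 56.4% for Mylpf, 59.2% for Tnnt1 and a median of 52.4% over 32851 windows of the same length. Of those windows 66.2% held an E-box, 13.0% CAGCTG, 12.6% the MCAT element, 1.47% a CArG box, 2.92% a MEF2 box and 12.4% TATAAA. A match of letters is a description and no evidence of binding.

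Mylpf, the fast light chain gene, lay far below the reference in both cell types and less far in M833. Its log2 ratio was lowest at -6.49, had a median of -5.52 and was highest at -4.65 over the 8 WT arrays, and ran from -4.79 through a median of -4.48 to -4.16 over the 8 M833 arrays. In 6 of 8 M833 arrays it was above every WT array, and the other 2 M833 arrays lay within the WT range, so that the cell types overlapped. The means were -5.53 ± 0.64 in WT and -4.49 ± 0.21 in M833 (SD after adjustment for dye, n = 8 each), which is 46.2-fold and 22.5-fold below the reference. The log2 difference was 1.04 ± 0.23 (SE), or 2.06-fold, with a 95% interval from 0.55 to 1.53. The intervals of this difference, here and for the other 2 genes, treat the arrays as independent. They belong to the contrast that chose the genes, so that lying apart from 0 is no test. The WT values varied 3.09 times as much as the M833 values by their SDs. The pooled SD of Mylpf was larger than that of 97.4% of all 12761 features, where a feature is a named gene with its probes averaged or a single probe without one symbol.

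The spread within WT followed a division of the arrays that no label names. Across the features as a whole, WT replicates 1, 2, 5 and 6 deviated from their dye's mean together, as did replicates 3, 4, 7 and 8, each set with both dyes. Over 12761 features the deviations of 2 WT arrays of opposite dye correlated at 0.11 to 0.44 in the 8 pairs within a set and at -0.44 to -0.07 in the 8 pairs across sets, a description of arrays that share the reference. Deviations from the mean of 4 arrays sum to 0, so that the range across sets is tied to the range within sets. The division was fixed by replicate number without a label, and these correlations describe it and do not test it. The M833 arrays, divided by the same replicate numbers, gave 0.03 to 0.24 within and -0.19 to 0.03 across sets. Replicate numbers pair nothing between the cell types, so that another division of the M833 arrays could have given other values. Mylpf was at -6.49, -6.09, -5.57 and -6.01 on WT replicates 1, 2, 5 and 6 and at -4.65, -5.18, -4.79 and -5.47 on replicates 3, 4, 7 and 8. The sets did not overlap, and their means of -6.04 and -5.02 lay 1.02 apart, about as far as M833 lay from WT. M833 exceeded the first set by 1.55 and the second by 0.53 on the log2 scale. The M833 arrays, divided by the same numbers, had means of -4.37 and -4.61 for Mylpf.

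Tnnt1, the slow troponin T gene, was below the reference to a lesser degree. It ran from -2.60 through a median of -2.18 to -1.87 over the WT arrays and from -2.32 through a median of -1.64 to -1.09 over the M833 arrays. In 6 of 8 M833 arrays it was above every WT array, while M833 replicate 6 at -1.95 and replicate 8 at -2.32 lay among the WT values. The means were -2.20 ± 0.24 in WT and -1.59 ± 0.41 in M833 (SD after adjustment for dye, n = 8 each). The log2 difference of Tnnt1 was 0.61 ± 0.16 (SE), or 1.52-fold, with a 95% interval from 0.26 to 0.95. Here the larger spread was in M833, where replicates 1, 2, 5 and 6 spanned -1.95 to -1.19 and replicates 3, 4, 7 and 8 spanned -2.32 to -1.09. The sets of WT arrays overlapped, with means of -2.26 and -2.14. Both low M833 arrays are among the 3 whose titles carry slide numbers of another run of numbers. The remaining one of these, replicate 7, was at -1.21, among the higher M833 values, and without these 3 the difference was 0.77 ± 0.15.

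Myl4, the embryonic and atrial light chain gene, stood near the reference and differed least. It ran from -0.07 through a median of 0.18 to 0.33 over the WT arrays and from 0.22 through a median of 0.35 to 0.40 over the M833 arrays. In 5 of 8 M833 arrays it was above every WT array, and 4 of the WT arrays reached the M833 range. The means were 0.15 ± 0.16 in WT and 0.32 ± 0.06 in M833 (SD after adjustment for dye, n = 8 each), a log2 difference of 0.17 ± 0.06 (SE), or 1.13-fold, with a 95% interval from 0.04 to 0.30. The 4 WT arrays within the M833 range were replicates 1, 2, 5 and 6, at 0.33, 0.22, 0.28 and 0.30. WT replicates 3, 4, 7 and 8 were at 0.04, -0.07, -0.03 and 0.13, below every M833 array. M833 thus exceeded the first set of WT arrays by 0.04 ± 0.04 and the second by 0.31 ± 0.05 (SE). The order of the WT sets was the reverse of that in Mylpf, with Myl4 higher by 0.27 where Mylpf was lower by a log2 difference of -1.02. When sets were fitted as a random block in WT and M833 alike, the SEs of the M833 minus WT differences rose to 0.29 for Mylpf, 0.28 for Tnnt1 and 0.08 for Myl4.

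**Figure D1:**
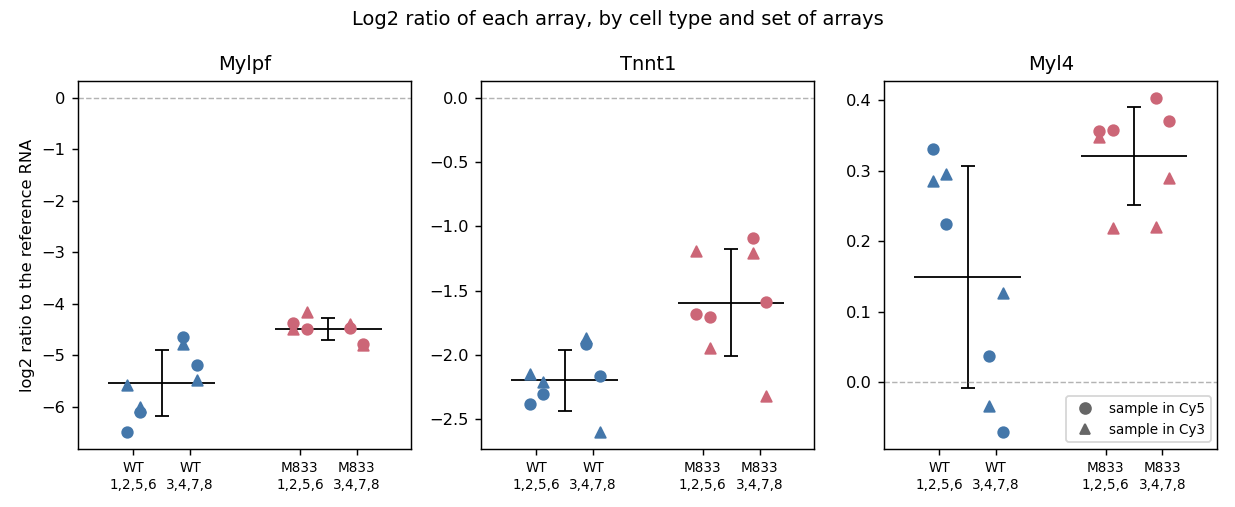
Log2 ratio to the reference RNA (y axis, a separate scale in each panel) of Mylpf, Tnnt1 and Myl4 on every array, by cell type and set of replicates (x axis); circles are arrays with the cells in Cy5, triangles with the cells in Cy3, long lines the means of 8 arrays, bars 1 SD of the 8 values, and the dashed line equality with the reference. The WT sets lie apart in Mylpf and, in the opposite order, in Myl4, and in Tnnt1 2 M833 arrays lie among the WT values.

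The position against the reference does not depend on the difference between the cell types and was tested as the mean over both cell types and both dye orientations. Mylpf was 32.2-fold below the reference, a log2 ratio of -5.01 ± 0.11 (SE, n = 16 arrays; adjusted p = 6.0e-16, limma), and Tnnt1 3.72-fold below it, at -1.90 ± 0.08 (adjusted p = 1.9e-12). Myl4 was above it, at 0.23 ± 0.03 (adjusted p = 2.3e-06), or 1.18-fold. All 3 genes passed this test, as did 82.9% of all features, so that passing it is common and the sizes carry the information. Mylpf ranked 38 from the lowest among 12761 features and 7 from the lowest among named genes. Tnnt1 ranked 138 from the lowest named gene, and Myl4 had 76.7% of all features below it. A ratio to the reference does not say which of the 3 transcripts was the most abundant.

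The named genes next to Mylpf in this order were genes of liver and red blood cells. Below it stood Apoa1 (-5.07), Ttr (-5.42) and Alas2 (-5.55), encoding an apolipoprotein, transthyretin and the haem synthesis enzyme of red cells, and their M833 minus WT differences were 0.10 ± 0.26, 0.11 ± 0.13 and 0.01 ± 0.11 (SE). Above it stood the embryonic globin gene Hbb-y (-4.87), the selenoprotein gene Selenop (-4.53) and Serpina6 (-4.49), which encodes a steroid-binding plasma protein, with differences of 0.33 ± 0.13, -0.80 ± 0.13 and 0.69 ± 0.27. Selenop fell in M833 (adjusted p = 0.00025, limma), and the other 5 did not pass the test. Beside Tnnt1 stood Sema6d, Fcgbp, Lmcd1, Cldn6, Itih1 and Stbd1, with differences from -0.22 for Fcgbp to 0.19 for Itih1. Those beside Myl4 were Mkrn2, Tnfrsf9, Thap4, Mcam, Ttc9c and Ubtfl1, with differences from -0.12 for Mkrn2 to 0.34 for Mcam. Among the other 87 features below -3 on the log2 scale 57.5% were higher in M833, with a median difference of 0.01 and a range from -0.80 to 0.97. Among the other 620 features from -3 to -1, where Tnnt1 lies, the median was 0.06 with 58.5% higher, and among the 11825 from -1 to 1, where Myl4 lies, it was -0.04 with 38.6% higher.

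**Figure D2:**
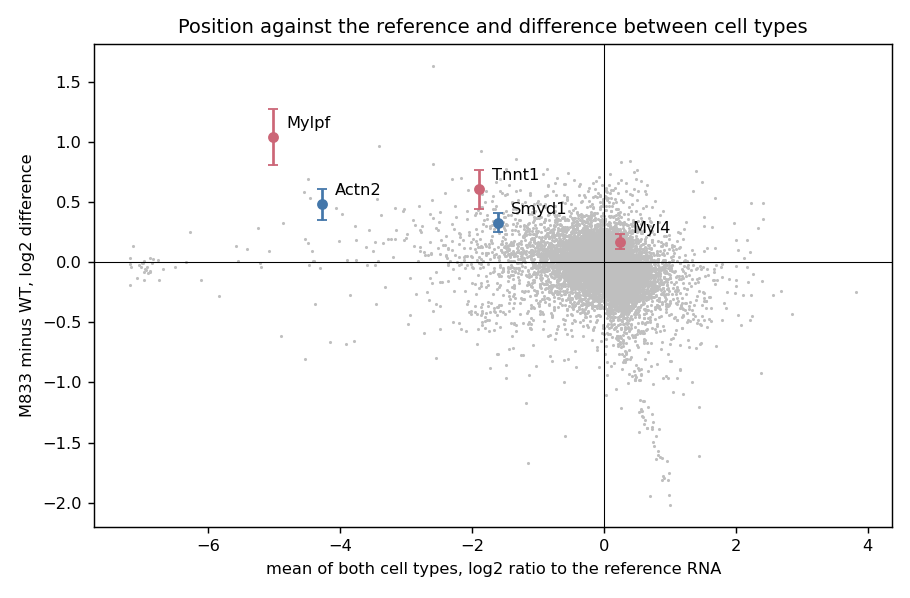
M833 minus WT log2 difference (y axis) against the mean log2 ratio of both cell types to the reference RNA (x axis) for 12761 features (grey), with Mylpf, Tnnt1 and Myl4 in red and the muscle genes Actn2 and Smyd1 in blue; bars are SEs. The other features below -3 on the x axis run from -0.80 to 0.97 on the y axis; with log ratios scaled between arrays Actn2 would lie at -0.29 on the y axis, and Mylpf at 0.13.

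None of the 3 genes showed a dye effect past the threshold. Ratios with the cells in Cy5 less those with the cells in Cy3 were -0.10 ± 0.23 for Mylpf (SE, n = 16 arrays; adjusted p = 0.750, limma), 0.08 ± 0.16 for Tnnt1 (adjusted p = 0.716) and 0.03 ± 0.06 for Myl4 (adjusted p = 0.700), while 41.3% of all features passed this test. The 95% intervals ran from -0.59 to 0.38, from -0.26 to 0.43 and from -0.10 to 0.16. The M833 minus WT difference was 1.08 in Cy5 and 1.001 in Cy3 for Mylpf, 0.67 and 0.54 for Tnnt1 and 0.24 and 0.10 for Myl4. The change of this difference with the dye had adjusted p = 0.999682 for each gene (limma, interaction term), and 0% of features passed, with 361 of 12761 at an unadjusted p under 0.05. Its 95% interval was widest for Mylpf, from -0.93 to 1.09.

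The arrays differed in the overall spread of their log ratios, and the difference in Mylpf depended on how this spread was treated. The interquartile range over all probes was 0.462 to 0.664 on the WT arrays and 0.404 to 0.557 on the M833 arrays. It was largest on WT replicates 1 and 2, at 0.664 and 0.641, which held the lowest and the second lowest Mylpf values of the series. When all arrays were scaled to one spread, Mylpf ran from -6.12 to -3.97 in WT and from -5.69 to -3.99 in M833, and no M833 array exceeded every WT array. The scaled difference was 0.13 ± 0.23 (SE), made up of -0.13 in Cy5 and 0.39 in Cy3. For Tnnt1 the scaled difference was 0.27 ± 0.16, with 3 of 8 M833 arrays above every WT array, and for Myl4 it was 0.21 ± 0.06, with 5 of 8. Scaling also gave Mylpf a dye effect past the threshold, 0.76 ± 0.23 (SE, n = 16 arrays; adjusted p = 0.014, limma). Scaling multiplies all ratios of an array by a common factor, so that it moves genes far from the reference most. On WT replicate 1 it took Mylpf from -6.49 to -4.76 and Myl4 from 0.33 to 0.24. The scaled difference and dye effect of Mylpf thus depend on these factors as well as on its own ratios. Whether the wider spread of the WT arrays, or of arrays with the cells in Cy5, is technical was not tested.

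**Figure D3:**
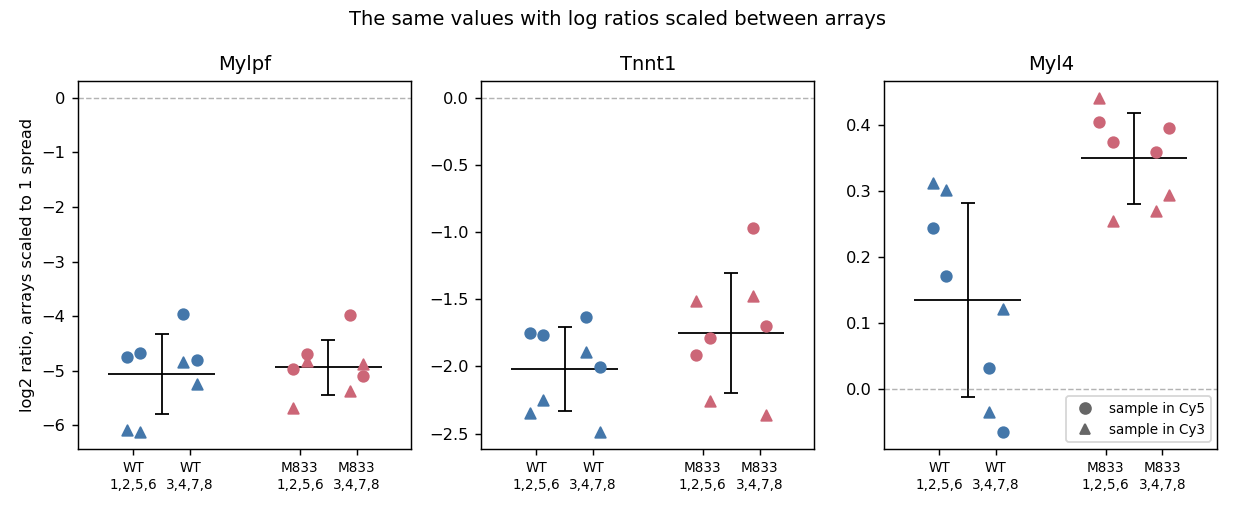
The values of Mylpf, Tnnt1 and Myl4 on every array (y axis, log2 ratio after scaling all arrays to one spread, a separate scale in each panel) by cell type and set of replicates (x axis), with symbols, lines and bars as for the unscaled values. The cell types overlap fully in Mylpf, with means of -5.06 and -4.94, while 5 of 8 M833 arrays remain above every WT array in Myl4.

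**Figure D4:**
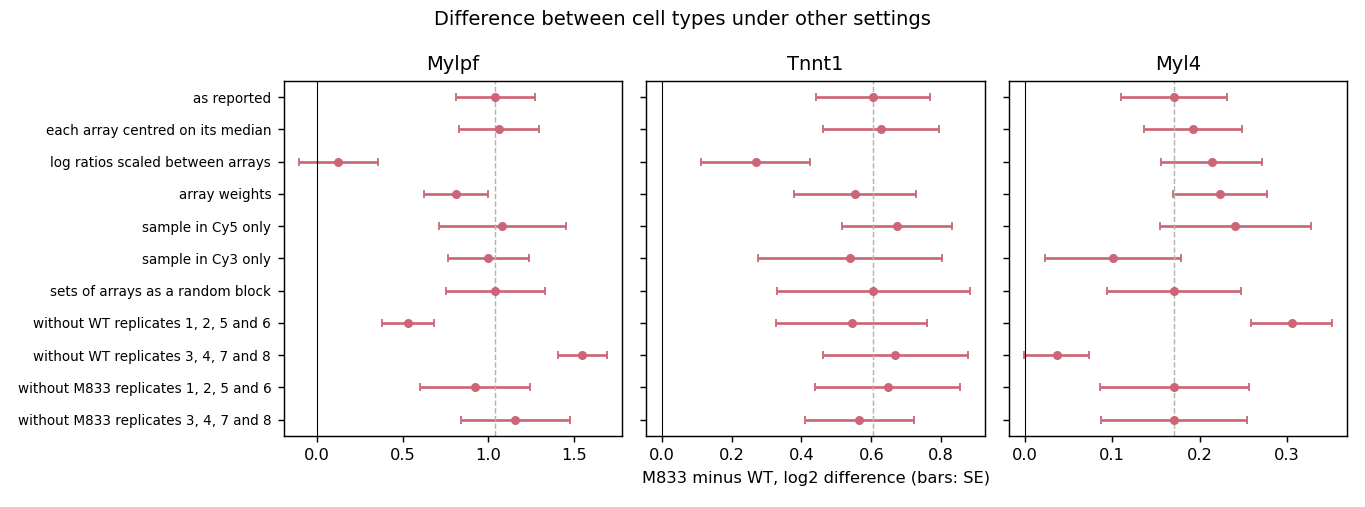
M833 minus WT log2 difference (x axis; points are fitted values, bars SEs) of Mylpf, Tnnt1 and Myl4 under the reported and other settings (y axis), with the reported value dashed. Mylpf runs from 0.13 with scaled arrays to 1.55 without WT replicates 3, 4, 7 and 8, and Myl4 falls to 0.04 without those 4 arrays.

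The genes whose values followed each member most closely over the 16 arrays were different for each of them. Of 7111 other named genes, the 5 most like Mylpf by Pearson r after adjustment for dye were Spire1 (0.954), Pnn (0.952), Strbp (0.941), Mdk (0.941) and Timm8a1 (0.941). Mdk, the gene of the growth factor midkine, itself differed by 1.63 ± 0.19 (SE) between the cell types, while the other 4 differed by 0.11 to 0.35. Those most like Tnnt1 were Pkp4 (0.947), Dab1 (0.938), Kcne3 (0.931), Cldn7 (0.921) and Taf7 (0.915). Those most like Myl4 were Khdrbs1 (0.954), Smarce1 (0.937), Ppp1ca (0.924), Mdm1 (0.923) and Tbc1d17 (0.909). These r values describe arrays that share the reference and the sets, and with Spearman's rho 2, 2 and 1 of the 5 genes stayed among the first 5. Measured on deviations from the cell type and dye means, 1, 3 and 1 stayed. The highest r was then that of Krt18 for Mylpf (0.964), Pkp4 for Tnnt1 (0.899) and Khdrbs1 for Myl4 (0.947). The first 5 did not stand alone, as 40 named genes had an r over 0.9 with Mylpf, 6 with Tnnt1 and 7 with Myl4 after adjustment for dye.

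Other sarcomere genes moved in both directions. Of 70 further genes listed for the sarcomere and its Z-discs 9 were measured, and M833 was higher in 3, lower in 3 and not past the threshold in 3 (adjusted p under 0.05, limma). Over all features 25.9% were called, 10% higher and 15.9% lower, and the median difference of the 9 genes was -0.11 against -0.03 for all features. Actn2, the alpha-actinin of the striated muscle Z-disc, lay as far below the reference as few genes did and rose from -4.51 in WT to -4.03 in M833, by 0.48 ± 0.13 (SE, n = 8 each; adjusted p = 0.011, limma). With scaled arrays Actn2 was at -0.29 (adjusted p = 0.232), and without WT replicates 1, 2, 5 and 6 it was at 0.22 (adjusted p = 0.147). Smyd1, a muscle methyltransferase needed for myosin assembly, rose by 0.33 ± 0.08 (adjusted p = 0.0049), against 0.03 with scaled arrays and 0.22 without that set of WT arrays (adjusted p = 0.058). Tpm3, a slow tropomyosin gene also used in non-muscle cells, rose by 0.09 ± 0.03 (adjusted p = 0.014).

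Pdlim5, a Z-disc scaffold gene, fell by 0.30 on the log2 scale (SE 0.04, adjusted p = 0.00015, limma). Nrap, which is involved in myofibril assembly, fell by 0.34 (SE 0.10, adjusted p = 0.023), a call lost with scaled arrays, where the difference was -0.12, and without WT replicates 1, 2, 5 and 6, where it was -0.17. Tpm2, the beta-tropomyosin gene, fell by 0.24 (SE 0.08, adjusted p = 0.036), against -0.04 without WT replicates 3, 4, 7 and 8. That call was also lost when any one of WT replicates 3, 4, 7 and 8 or M833 replicates 2, 3, 4, 5, 7 and 8 was left out, with differences from -0.25 to -0.20. The 3 genes that did not pass, named after their values were seen, were Actn3 at 0.28 ± 0.19, Tpm1 at -0.11 ± 0.08 and Cryab at -0.27 ± 0.11 (SE).

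Contractile genes of non-muscle and smooth muscle cells were called at a share near that of all features, and their counts varied with the arrays used. Of 38 listed 25 were measured, of which 3 were higher in M833, 2 lower and 20 not past the threshold, or 20% called against 25.9% of all features. Without WT replicates 1, 2, 5 and 6 the number called lower was 15, with array weights it was 10, and without WT replicates 3, 4, 7 and 8 the number called higher was 8. Tagln2, an actin-binding protein gene, rose from 0.69 to 1.11, by 0.42 ± 0.06 (SE, n = 8 each; adjusted p = 0.00011, limma). Mylk, the kinase of the smooth muscle and non-muscle regulatory light chains, rose by 0.39 ± 0.09 (adjusted p = 0.0047), against 0.07 with scaled arrays and 0.22 without WT replicates 1, 2, 5 and 6 (adjusted p = 0.076). Tmod3, which caps actin filaments, rose by 0.14 ± 0.03 (adjusted p = 0.0016), with its 3 probes between -0.01 and 0.26. Cnn3, a calponin gene, fell by 0.21 (SE 0.06, adjusted p = 0.023), against -0.09 with scaled arrays and -0.06 without WT replicates 3, 4, 7 and 8.

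None of the 4 measured light chain genes that fibroblasts use was called higher in M833. Myl6, the non-muscle essential light chain gene, fell by 0.12 (SE 0.04, adjusted p = 0.038, limma), with 0.03 on scaled arrays, where the sign turned, and -0.03 without WT replicates 3, 4, 7 and 8. Dropping a single array also ended the Myl6 call for each of WT replicates 2, 3, 4, 7 and 8 and M833 replicates 2 to 7, with differences from -0.12 to -0.10. The regulatory light chain genes Myl9, Myl12a and Myl12b were at -0.40 ± 0.19, -0.13 ± 0.10 and -0.14 ± 0.10 (SE), and none of the 3 passed the test. Their M833 means of 1.02, 0.93 and 0.59 lay between the means of the WT sets, so that the differences turned to 0.10, 0.13 and 0.11 against WT replicates 1, 2, 5 and 6 alone and were -0.90, -0.39 and -0.39 against replicates 3, 4, 7 and 8. All 4 differed between the sets of WT arrays, with means on replicates 1, 2, 5 and 6 against 3, 4, 7 and 8 of 0.92 and 1.93 for Myl9, 0.79 and 1.32 for Myl12a, 0.48 and 0.97 for Myl12b and 0.76 and 0.93 for Myl6. In these 4 the first set was the lower one, as in Mylpf and unlike Myl4.

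Regulators of muscle differentiation were called at a share near that of all features. Of 56 listed 14 were measured, of which 2 were higher in M833, 1 lower and 11 not past the threshold, or 21.4% called against 25.9% of all features. Id3 rose by 0.43 ± 0.06 (SE, n = 8 each; adjusted p = 0.00017, limma) and Id2 by 0.42 ± 0.08 (adjusted p = 0.0013), and in both every M833 array was above every WT array. Both encode proteins that bind E proteins and keep them from pairing with myogenic factors. With scaled arrays Id2 was at 0.06 (adjusted p = 0.784). Id1, a further member of that family, named after its values were seen, was at 0.07 ± 0.09 (SE, adjusted p = 0.588, limma). Mef2a, a MEF2 factor gene, fell by 0.20 (SE 0.04, adjusted p = 0.00067), and the 11 genes that did not pass lay between -0.76 and 0.17.

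Genes of muscle excitation, membrane and metabolism were called in both directions. Of 53 listed 9 were measured, of which 1 was higher in M833, 4 lower and 4 not past the threshold, or 55.6% called, with a median of -0.11, against 25.9% called over all features, 10% higher and 15.9% lower. Dysf, the membrane repair gene dysferlin, fell by 0.59 (SE 0.07, n = 8 each; adjusted p = 1.0e-05, limma), with every M833 array below every WT array. Dag1, the dystroglycan gene, fell by 0.30 (SE 0.05, adjusted p = 0.00030), and Asph, whose locus also encodes the calcium store protein junctin, fell by 0.28 (SE 0.05, adjusted p = 0.0015). Fabp3, a fatty acid carrier gene, fell by 0.22 (SE 0.07, adjusted p = 0.021), against -0.12 without WT replicates 3, 4, 7 and 8. Agrn, the gene of agrin, which gathers receptors at the neuromuscular junction, rose by 0.15 ± 0.05 (adjusted p = 0.030), against 0.04 with scaled arrays, and its call was lost without any one of WT replicates 6 and 7 or M833 replicates 2, 4 and 8, with 0.13 to 0.14. The 4 genes that did not pass, named after their values were seen, were Pfkm at -0.11, Atp2a2 at 0.09, Cacna2d1 at -0.06 and Hrc at 0.05.

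Many of these calls depended on how the sets of arrays were handled. With the sets as a random block the calls of Actn2, Smyd1, Tpm3, Nrap, Tpm2, Mylk, Tmod3, Cnn3, Myl6, Fabp3 and Agrn were lost, at adjusted p from 0.051 for Tmod3 to 0.283 for Agrn (limma). Without a dye term those of Tpm3, Myl6, Fabp3 and Agrn were lost, with each array centred on its median those of Tpm2, Cnn3 and Myl6, and with array weights that of Nrap. Without WT replicates 1, 2, 5 and 6 Tpm3 and Agrn were lost too, at 0.07 and 0.13. Of the 19 genes called in these 4 lists, 7 (Pdlim5, Tagln2, Id3, Mef2a, Dysf, Dag1 and Asph) were called in each of 8 other settings, which do not include leaving out single arrays.

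**Figure D5:**
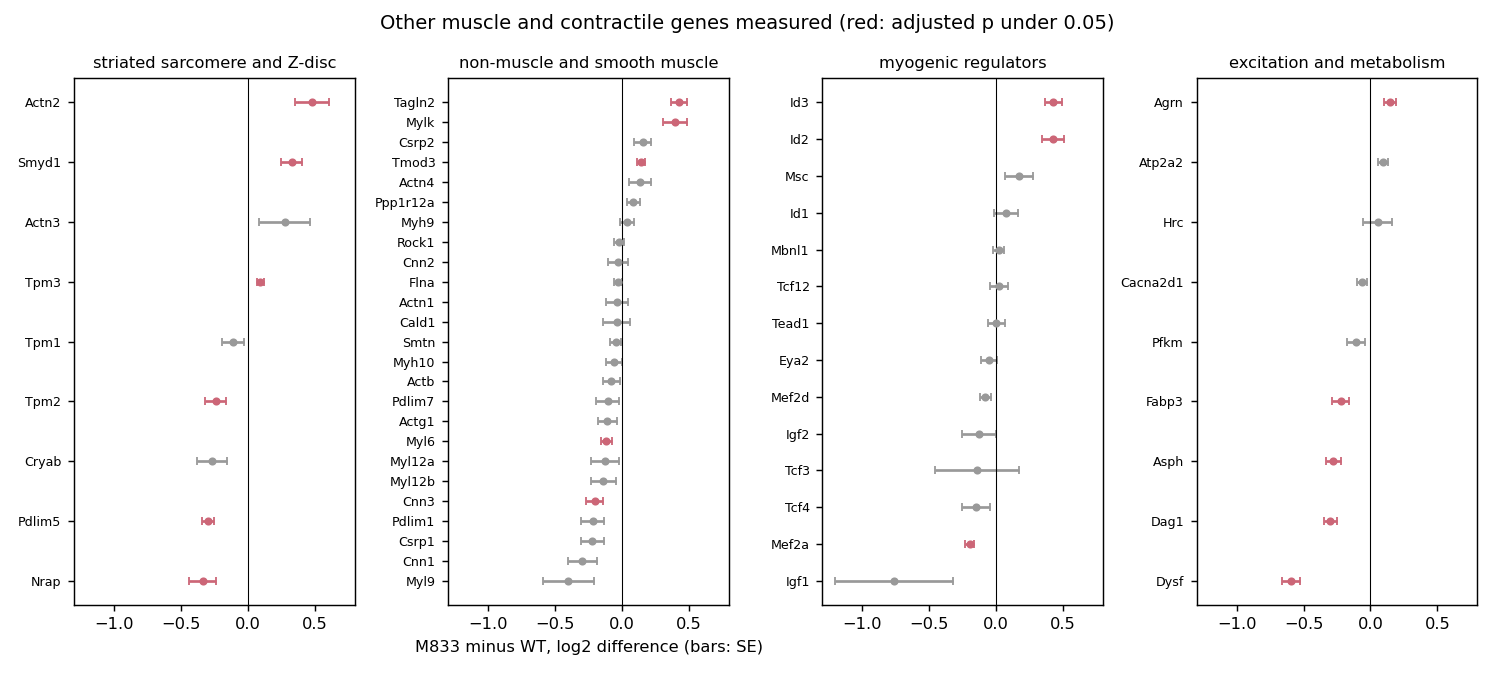
M833 minus WT log2 difference (x axis; points are fitted values, bars SEs, n = 8 arrays per cell type) of the measured genes (y axis) of 4 lists of muscle and contractile genes, with adjusted p under 0.05 in red. Dysf stands lowest among the red points and Actn2 highest; with scaled arrays Actn2 turns to -0.29 and Myl6 to 0.03.

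Some markers of other cell types differed between WT and M833 beside these genes, where 10% of all features were called higher and 15.9% lower. Of 9 macrophage and leukocyte markers measured 8 were lower in M833, Lyz2 by a log2 difference of -1.67 and C1qb by -1.45, and the list's mean per array ran from -0.51 to -0.30 in WT and from -1.53 to -1.16 in M833. Of 8 fibroblast markers 5 were lower, with Col1a2 at -0.87 and Col3a1 at -0.38 and list means from -0.60 to -0.21 in WT and from -0.93 to -0.49 in M833. Of 3 cardiac markers 2 were higher, Gata4 by 0.45 and Hand1 by 0.27, with list means from -0.69 to -0.27 in WT and from -0.49 to 0.01 in M833. Of 2 cartilage markers Col2a1 was higher by 0.97, and Col9a3 was at 0.06, with list means from -3.62 to -2.29 and from -3.19 to -1.91. Of 6 neural markers 1, Nes, was called higher, by 0.64, which was 1.25 against WT replicates 1, 2, 5 and 6 and 0.03 against replicates 3, 4, 7 and 8. Tubb3 was at 0.26, with list means from -1.85 to -1.13 and from -1.59 to -0.89. The marker calls, here and in the lists below, were not followed under scaled arrays, sets as a block or the other settings. The part of these markers in the values of Mylpf, Tnnt1 and Myl4 was not tested.

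In 3 further marker lists no gene was called by limma. The 8 epithelial markers had list means from -2.22 to -1.54 in WT and from -2.13 to -1.42 in M833. The largest differences were 0.70 for Cldn7 and 0.41 for Cldn3. Jup at -0.33 and Cdh1 at -0.17, named after their values were seen, went the other way. Cldn3 was at 0.84 against the first set of WT arrays and at -0.03 against the second, and Cldn7 at 0.85 and 0.54. The 4 endothelial markers ran from -1.89 to -0.99 and from -1.63 to -1.18, with Emcn at 0.35 and Pecam1 at 0.17. The 6 red cell markers ran from -4.01 to -3.64 and from -3.87 to -3.47, with Gata1 at 0.55 and Hbb-y at 0.33. A ratio to the reference cannot show which markers were absent from the cells.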

How the data were processed

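The data are 16 two-colour arrays of WT or M833 total RNA, each with one common reference RNA. What the authors deposited is a table of normalised ratios, read as log2 because of their range, and the submitters' processing notes name limma. No source used here gives the background correction, the normalisation or any filter, and channel intensities were not used here, so dim probes could not be filtered. Replicates were numbered in accession order and pair nothing.

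Of 15247 probes, 9600 had 1 symbol, 214 several and 5433 none in the platform annotation, which is old; 9492 matched a current gene table by Entrez number. Probes of a gene were averaged, giving 12761 features, 7114 of them named. limma 3.58.1 in R 4.3.3 fitted cell type and dye on all 16 arrays, with Benjamini-Hochberg adjustment over all features and a threshold of 0.05. Tested on simulated data with 12761 features, M833 minus WT recovered 72% of log2 changes of 0.25, 92% of 0.5 and 100% of 1, with 14 false calls. The simulated arrays were independent of each other, whereas the real sets of arrays had a correlation of 0.32 when fitted as a block. These figures therefore do not hold for arrays that fall into sets.

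The members and lists were chosen with earlier results of these data known. Named were the members, called list genes (up to 4 per direction, and all where 8 or fewer were measured) and measured light chains. Also named were the 5 genes most like each member, 3 neighbours on each side and 2 markers per list, with 2 more epithelial ones. Alternatives were centring, scaling to one spread, array weights, no dye term, single dyes, extreme values (beyond 8) missing, sets of arrays as a block or left out, the second slide number series left out and each array left out.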

Additional observations from a re-analysis of the deposited data

How the results depend on the processing

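Of 90 alternative member differences 85 moved by less than the pooled SD between single arrays, which is a wide limit. Most of the 90 left out a single array or could not move the estimate, so the count does not measure robustness. Within that limit Tnnt1 fell from 0.61 to 0.27 with scaled arrays. Of the ratios to the reference 63 of 63 kept direction and call (adjusted p from 2.6e-17 to 4.0e-05, limma). Of 192 list counts 146 stayed within 1.5 times. The Mylpf difference was 0.13 with scaled arrays, 0.53 without the first set of WT arrays (replicates 1, 2, 5, 6) and 1.55 without the second (3, 4, 7, 8); Myl4 was at 0.31 and 0.036 without those sets. The dye effect of Mylpf was 0.76 with scaling and 0.011 with array weights, that of Myl4 -0.0053 with scaling. The interaction was -0.52 and -0.55 for Mylpf and -0.15 and -0.13 for Tnnt1 with scaling and weights. Leaving out single arrays gave dye effects of -0.25 to 0.036 (Mylpf) and -0.023 to 0.15 (Tnnt1) and interactions of -0.21 to 0.40 and -0.083 to 0.29. Sarcomere genes called higher numbered 1 with scaling, 0 with the sets as a block and 0 without the first set, and those lower 1 with the block. Non-muscle genes called higher numbered 7 with scaling, 1 with the block and 8 without the second set. Those lower numbered 0 with centring, 1 with scaling, 1 with no dye term, 10 with weights, 0 with the block, and 15 and 0 without the first and the second WT set. Myogenic regulators called higher numbered 1 with scaling and 4 without the first set, and those lower 2 with scaling, 3 with weights and 3 without either set. Excitation genes called higher numbered 0 with scaling, with no dye term, with the block and without the first set, and 2 without the second. Single arrays left out gave 1 to 5 non-muscle genes lower and 0 to 2 excitation genes higher. Of all features 3301 were called, 38.7% of them higher; centring gave 48.8% higher, no dye term 2000 calls and the block 1465. The causes were not tested. No paired analysis was possible because the labels give no replicate numbers. The number of arrays limits the precision.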
